A study of Homo sapiens with 4 samples.

Results

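The genes described here are the chaperones and co-chaperones of Panc1 cells, an established human line from a pancreatic ductal carcinoma. They were chosen by symbol: the HSP70, HSP90 and small heat shock families, the J-domain families DNAJA, DNAJB and DNAJC, the chaperonins, BAG1 to BAG6 and the heat shock factors HSF1 and HSF2. The endoplasmic reticulum stress genes HSPA5, DNAJB9 and DNAJC3 were left out. This gave 84 of the 54628 genes in the count tables, and 71 of them had enough counts to be tested. Poly(A) RNA was sequenced in 4 libraries, 2 labelled HMGB2 siRNA, a small interfering RNA against the chromatin protein HMGB2, and 2 labelled scramble, a control siRNA. All 4 came from the same line, and the labels do not say whether the libraries of a group were separate cultures, so the spread between them may be technical. The name cytosolic does not cover all of these genes. HSPD1, HSPE1, HSPA9, DNAJC19 and DNAJC30 encode mitochondrial proteins, DNAJB11, DNAJC10 and HSPA13 proteins of the endoplasmic reticulum, and HSPB11 a subunit of intraflagellar transport.

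Chaperones bind unfolded protein and let it fold or hand it on for degradation. HSP70 proteins do so in cycles of ATP hydrolysis that J-domain proteins start and that nucleotide exchange factors, among them the BAG proteins and the HSP110 relatives HSPA4, HSPA4L and HSPH1, bring to an end. HSP90 completes the folding of kinases and steroid receptors, the TRiC ring folds actin and tubulin, small heat shock proteins hold aggregating protein, and heat shock factors switch many of these genes on under stress.

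HMGB2 checks the labels, and it went against them. Its exons (GRCh38, chromosome 4, 173331376 to 173334358) took 4021 and 2746 counts under the HMGB2 siRNA label and 346 and 319 counts under the scramble label. This was 8.43-fold more by the edgeR fit (adjusted p = 1.54e-33). The count column of each of the 4 tables was also headed with the treatment opposite to its sample's label. Directions below are those of the HMGB2 siRNA label, with high HMGB2, relative to the scramble label, with low HMGB2, and a reader who takes the headers as true must turn every sign round. Libraries held 20340695 to 31852391 counts, replicate 1 labelled HMGB2 siRNA being the deepest. A gene at 0 could have had up to 3 counts, or 0.0942 to 0.147 CPM (counts scaled to library size, per 1e6), by counting error alone. The ductal keratins KRT8 and KRT18 were at 886 CPM or more in every library. EPCAM was at 16.6 to 18.5 CPM, and the defining markers PTPRC, DCN, PECAM1, PRSS1 and INS at 3 counts or fewer. The fibroblast list was not empty. Its 5 genes summed to 61.2 and 61.5 CPM under the HMGB2 siRNA label and 77.1 and 55.4 CPM under the scramble label, nearly all of it COL1A1, with DCN at 0. PDGFRB of that list had 26 and 22 counts (0.827 and 1.07 CPM) under HMGB2 siRNA and 7 and 4 counts (0.318 and 0.192 CPM) under scramble. CD68 of the leukocyte list had 98.7 to 121 CPM. All ductal markers but KRT18, which overlapped, lay apart by label and were higher under HMGB2 siRNA. KRT19 had 722 and 691 CPM under HMGB2 siRNA and 481 and 398 CPM under scramble, and KRT7 had 4.74 and 4.63 CPM against 2.59 and 3.02 CPM. KRT8 had 2720 and 2770 CPM against 2540 and 1960 CPM, and EPCAM 18.5 and 18 CPM against 17.8 and 16.6 CPM. The mitochondrial share of counts also lay apart, lower under HMGB2 siRNA, with 4.43% and 4.69% against 5.25% and 5.36%. Their part in the results was not tested. In bulk RNA, fewer cells of a kind and less RNA per cell cannot be told apart.

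Of the 71 tested chaperone genes, 17 rose and 5 fell under the HMGB2 siRNA label, where HMGB2 itself was high, and 49 did not pass. The shares were 23.9% higher and 7.04% lower, where 16.7% and 14.1% of all 15161 genes tested were called in those directions (quasi-likelihood test of edgeR, p adjusted by Benjamini-Hochberg under 0.05). In either direction 22 of 71 were called, a share near the 30.8% of all genes. The median log2 fold change of the 71 tested chaperone genes was 0.05, beside -0.01 over all genes tested. Sizes were small: 5 of 71 chaperone genes (7.04%) differed by more than 1.5-fold in either direction, against 13.6% of all genes. Both libraries of a label lay on the same side of both libraries of the other for 44 of 71 (62.0%), against 63.7% of all genes. Of the 44, 31 lay above and 13 below, where 32.0% of all genes lay above and 31.6% below. Upper-quartile factors gave 13 higher and 7 lower, 65.0% of the calls higher instead of 77.3%, and a median of 0.0036. The same scaling moved all genes too, from 54.3% to 42% of calls higher and from a median of -0.0063 to -0.0570. With a library labelled HMGB2 siRNA left out, fewer chaperone genes passed, and fewer of all genes passed too. The median of the chaperone genes was then 0.0516 without replicate 1 and 0.0678 without replicate 2. Over all genes it was -0.0013 and -0.0015. Where 1 of the 49 is named below with its interval, that interval is the 95% confidence interval of the log2 fold change.

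**Figure D1:**
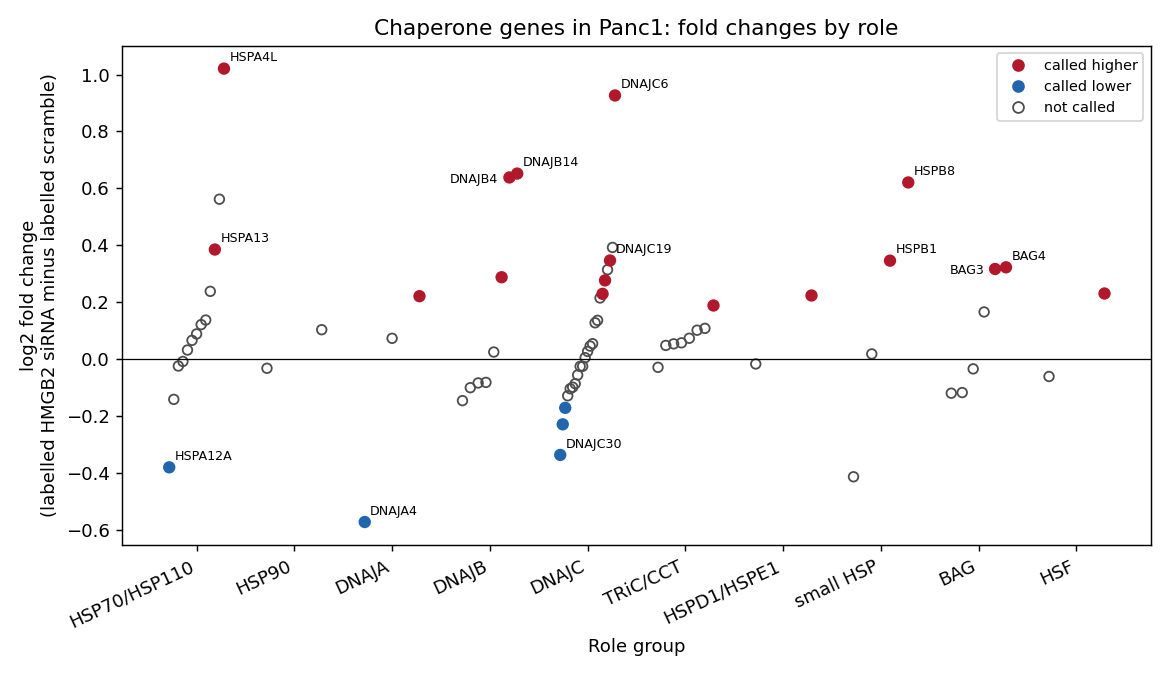
Log2 fold changes (libraries labelled HMGB2 siRNA minus libraries labelled scramble, vertical axis) of the 71 tested chaperone genes, by role group. Filled points passed the edgeR test and open points did not. HSPA4L at 1.02 is the highest point, DNAJA4 at -0.57 the lowest, and both HSP90 genes lie near 0.

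The 13 chaperone genes that were not tested had 0 to 9 counts in a library. DNAJA3, DNAJB3, DNAJB8, DNAJC28, HSPA1A and HSPA7 were at 0 in all 4 libraries. DNAJB7, DNAJB13, DNAJC12, HSPB2, HSPB3, HSPB7 and HSPB9 had counts in at least 1 library, with DNAJB13 at 3 and 6 counts under the HMGB2 siRNA label and 5 and 9 counts under the scramble label.

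The HSP70 family and its HSP110 relatives held the largest change of the chaperone genes. HSPA4L, an HSP110-type exchange factor (chromosome 4, 127781796 to 127840733), had 56.7 and 55.0 CPM under the HMGB2 siRNA label and 26.3 and 28.9 CPM under the scramble label. The groups did not overlap, and the fold was 2.03, a log2 fold change of 1.02 ± 0.08 (SE, n = 2 each; edgeR adjusted p = 2.4e-14). Its relatives did not pass the test. HSPA4 had 401 and 408 CPM against 394 and 420 CPM, a log2 fold change of -0.01 (interval -0.14 to 0.12; edgeR adjusted p = 0.945). HSPH1 had 250 and 253 CPM against 225 and 248 CPM, a log2 fold change of 0.09 (interval -0.04 to 0.22; edgeR adjusted p = 0.328, and 0.0264 without scramble replicate 2, where it was 0.16). Per exon length HSPA4L stayed the least abundant of the 3, as it was in CPM. HSPA4L made up 3.51% and 3.36% of their summed TPM (counts scaled to exon length and library) under the HMGB2 siRNA label. Under the scramble label it made up 1.74% and 1.77%. These shares depend on the listed exons, which cover 12191 bases in HSPA4L, 4774 in HSPA4 and 5696 in HSPH1. HSPA4 made up 63.4% and 63.6% against 66.5% and 65.7%. HSPA4L overlaps exons of LOC112268470 on its own strand, which had 0 counts in every library.

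HSPA13, a small HSP70 relative of the endoplasmic reticulum (chromosome 21, 14371115 to 14383146), was the other member of the family called higher. It had 58.7 and 52.7 CPM under the HMGB2 siRNA label and 42.1 and 43.5 CPM under the scramble label, without overlap. The log2 fold change was 0.39 ± 0.08 (SE, n = 2 each; edgeR adjusted p = 0.000124), and 0.30 without replicate 1 labelled HMGB2 siRNA, where the call was lost (adjusted p = 0.0659). HSPA12A, an atypical HSP70 relative, fell, with 11.0 and 9.36 CPM against 12.7 and 14.0 CPM (log2 fold change -0.38 ± 0.13, SE, n = 2 each; edgeR adjusted p = 0.0186). That call was lost without replicate 2 labelled HMGB2 siRNA (-0.28, adjusted p = 0.288), without scramble replicate 2 (-0.30, adjusted p = 0.085) and with DESeq2 (adjusted p = 0.0959). The other 10 tested members of the family were not called, with log2 fold changes from -0.14 (HSPA2) to 0.56 (HSPA6). The called share of the family was 23.1%, against 30.8% of all genes.

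HSPA8, the constitutive HSP70 of the cytosol (chromosome 11, 123057489 to 123062366), was among the most abundant chaperone transcripts. It had 2113 and 2154 CPM under the HMGB2 siRNA label and 1888 and 1991 CPM under the scramble label. Although the groups did not overlap, the log2 fold change of 0.14 (interval 0.00 to 0.27) did not pass (edgeR adjusted p = 0.121). It did pass without scramble replicate 2 (0.18, adjusted p = 0.0129) and without the low-count filter (0.16, adjusted p = 0.0212). The stress-inducible HSP70 genes could not be compared with it. HSPA1A was listed at 0 in all 4 tables, and HSPA1B had 6.01 and 5.75 CPM against 4.45 and 7.58 CPM, which overlap (log2 fold change -0.02, interval -0.40 to 0.35; edgeR adjusted p = 0.942). Both genes are near-identical in sequence, and each has exons on 4 alternative sequences of the assembly as well as on chromosome 6. HSPA6, another stress-inducible member, had 45 and 19 counts under the HMGB2 siRNA label and 17 and 18 under scramble and was not called (edgeR adjusted p = 0.309).

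Counts of 9 chaperone genes that also have exons on alternative sequences of the assembly need this caution, since the treatment of reads with several equal matches is not given in the sources used here. Besides HSPA1A, the mitochondrial J-domain gene DNAJA3 and DNAJC28 were listed at 0 in all 4 libraries, and BAG6, a guide for newly made membrane proteins with exons on 6 such sequences, had 97 and 82 counts against 73 and 80 counts. For these 4 genes the listed exon length was 2 to 6.20 times that on the chromosome. The pattern was not uniform: HSF1 (1.94 times) had 119 to 132 CPM and DNAJC8 (1.33 times) 183 to 212 CPM. Whether the counting explains the values at 0 was not tested. None of the 22 called chaperone genes has such exons.

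HSP90 was not called in either direction (0 of 2, where 30.8% of all genes were called). HSP90AB1, the constitutive form (chromosome 6, 44246194 to 44253883), had 2691 and 2745 CPM under the HMGB2 siRNA label and 2602 and 2458 CPM under the scramble label, without overlap. Its log2 fold change was 0.10 (interval -0.03 to 0.24; edgeR adjusted p = 0.271), and without scramble replicate 1 it was 0.15 and passed (adjusted p = 0.0377). HSP90AA1, the inducible form (chromosome 14, 102080742 to 102139749), had 1223 and 1306 CPM against 1288 and 1297 CPM, which overlap, with a log2 fold change of -0.03 (interval -0.17 to 0.10; edgeR adjusted p = 0.766). At an unadjusted p under 0.05 neither gene passed edgeR, and neither was called by DESeq2. The ratio of HSP90AB1 to HSP90AA1 in TPM was 3.04 and 2.90 under the HMGB2 siRNA label and 2.79 and 2.62 under the scramble label, a description without a test.

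Heat shock factors bind repeats of the unit GAA in alternating orientation. The promoter windows of RefSeq (GRCh38.p14, 250 bases before to 50 after a start) were searched for 3 such units in a row, GAANNTTCNNGAA or its reverse complement TTCNNGAANNTTC, so that both strands were covered. Of 35116 windows of all genes 0.490% held a match, and of 96 windows of the 72 chaperone genes with an entry 7 did (7.29%). These windows belong to HSPA8, HSP90AA1, HSP90AB1, HSPA6, HSPD1, DNAJB6 and DNAJA1, of which 1, DNAJA1, was called. The windows of HSPA4L, DNAJB14, DNAJB4, HSPB8, HSPB1 and BAG3, called higher, held no match to these letters, from which nothing follows about the factors. Shown are 4 windows with a match, for the most abundant genes and the called one, and 1 window of HSPA4L. Those of DNAJA1 and HSPA4L lie at the outer end of the gene as the count tables list it, while those of HSPA8, HSP90AB1 and HSPD1 lie at a RefSeq start inside the listed gene. The windows at the outer ends of HSP90AB1 and HSPD1 held no match. Each runs 5′ to 3′ along the gene, from 250 bases before the start to 20 after it, with matches in capitals.
HSPA8 chr11:123062117-123062386 (minus strand): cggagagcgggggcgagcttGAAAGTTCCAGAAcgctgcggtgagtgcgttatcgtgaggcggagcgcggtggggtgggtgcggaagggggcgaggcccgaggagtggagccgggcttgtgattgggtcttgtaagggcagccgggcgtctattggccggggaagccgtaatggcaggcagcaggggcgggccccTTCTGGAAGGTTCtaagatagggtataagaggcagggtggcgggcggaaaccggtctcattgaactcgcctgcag
HSP90AB1 chr6:44247693-44247962 (plus strand): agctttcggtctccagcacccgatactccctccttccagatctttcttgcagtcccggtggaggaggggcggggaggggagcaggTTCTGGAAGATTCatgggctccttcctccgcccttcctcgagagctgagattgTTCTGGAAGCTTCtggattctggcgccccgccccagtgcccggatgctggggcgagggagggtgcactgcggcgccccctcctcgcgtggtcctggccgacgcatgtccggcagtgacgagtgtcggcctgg
HSPD1 chr2:197499821-197500090 (minus strand): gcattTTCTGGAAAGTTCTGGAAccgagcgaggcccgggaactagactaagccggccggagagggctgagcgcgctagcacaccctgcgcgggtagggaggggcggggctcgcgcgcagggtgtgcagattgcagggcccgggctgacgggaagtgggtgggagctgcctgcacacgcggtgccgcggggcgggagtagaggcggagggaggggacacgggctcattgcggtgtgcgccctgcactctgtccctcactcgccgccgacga
DNAJA1 chr9:33025023-33025292 (plus strand): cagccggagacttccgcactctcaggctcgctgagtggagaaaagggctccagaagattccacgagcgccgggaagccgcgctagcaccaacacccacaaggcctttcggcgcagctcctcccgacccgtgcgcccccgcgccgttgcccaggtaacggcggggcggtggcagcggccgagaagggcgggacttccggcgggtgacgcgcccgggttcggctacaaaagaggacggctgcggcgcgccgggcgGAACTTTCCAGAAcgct
HSPA4L chr4:127781546-127781815 (plus strand): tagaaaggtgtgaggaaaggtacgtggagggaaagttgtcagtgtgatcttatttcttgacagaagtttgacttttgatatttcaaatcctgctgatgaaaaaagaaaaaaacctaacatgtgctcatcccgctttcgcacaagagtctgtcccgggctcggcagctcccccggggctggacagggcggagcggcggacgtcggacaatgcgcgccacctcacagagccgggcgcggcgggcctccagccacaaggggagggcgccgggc
In HSPA8 the matches begin 230 and 55 bases before the start, in HSP90AB1 165 and 112 bases before it, and in DNAJA1 4 bases after it. The 2 matches of HSPD1, 245 and 240 bases before the start, overlap each other.

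Among the J-domain proteins of class A, built like bacterial DnaJ, 1 of 3 tested genes rose and 1 fell. A group of 3 genes is too small to set beside the 30.8% of all genes called. DNAJA1, a partner of HSPA8 (chromosome 9, 33025273 to 33039907), had 423 and 422 CPM under the HMGB2 siRNA label and 350 and 375 CPM under the scramble label, without overlap. Its log2 fold change was 0.22 ± 0.06 (SE, n = 2 each; edgeR adjusted p = 0.00623). The size was about the same without replicate 1 or 2 labelled HMGB2 siRNA (0.22 and 0.23), but the call was then lost (adjusted p = 0.137 and 0.107). DNAJA4 (chromosome 15, 78264145 to 78282191) was the gene with the largest fall. It had 6.68 and 7.85 CPM against 9.49 and 11.9 CPM, without overlap, and a log2 fold change of -0.57 ± 0.15 (SE, n = 2 each; edgeR adjusted p = 0.00213), which without replicate 1 labelled HMGB2 siRNA was -0.45 and no longer called (adjusted p = 0.109). DNAJA2 had 87.0 and 79.2 CPM against 78.0 and 80.3 CPM and was not called (edgeR adjusted p = 0.476). DNAJA4 shares exon bases with LOC105370910 on the opposite strand, which had 0.986 to 1.73 CPM.

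Class B held 3 called genes of 8 tested (37.5%), all of them higher. Of all genes 30.8% were called, 16.7% of them in the higher direction and 14.1% in the lower. DNAJB14, a J-domain protein of the endoplasmic reticulum membrane (chromosome 4, 99896248 to 99946713), had 55.3 and 50 CPM under the HMGB2 siRNA label and 30.9 and 36.3 CPM under the scramble label. DNAJB4, a cytosolic relative of DNAJB1 (chromosome 1, 77979175 to 78017964), had 25.8 and 22.9 CPM against 13.9 and 17.6 CPM. In both genes the groups stood apart, with log2 fold changes of 0.65 ± 0.08 and 0.64 ± 0.11 (SE, n = 2 each; edgeR adjusted p = 1.99e-08 and 6.69e-06). DNAJB12, which is close to DNAJB14 in build and place, had 88.2 and 85.1 CPM against 76.4 and 65.5 CPM and a log2 fold change of 0.29 ± 0.07 (SE, n = 2 each; edgeR adjusted p = 0.00181), and without replicate 1 labelled HMGB2 siRNA it was 0.26 and not called (adjusted p = 0.088). DNAJB1, the main partner of inducible HSP70, had 170 and 176 CPM against 173 and 168 CPM, which overlap (log2 fold change 0.03, interval -0.10 to 0.15; edgeR adjusted p = 0.814). DNAJB11, a cofactor of the endoplasmic reticulum HSP70 and the most abundant of the class per length, had 142 and 151 CPM against 157 and 156 CPM (log2 fold change -0.10, interval -0.23 to 0.03; edgeR adjusted p = 0.261). DNAJB4 shares exon bases with FUBP1 on the opposite strand, whose log2 fold change was 0.04 (edgeR adjusted p = 0.689), and DNAJB1 with TECR, which was higher (0.36, edgeR adjusted p = 8.62e-05).

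Class C is the mixed group, whose members share little but the J domain. Of 23 tested, 4 rose, 3 fell and 16 were not called, with a median log2 fold change of 0.03. The called share of 30.4% was near the 30.8% of all genes. DNAJC19, a part of the motor that draws proteins into mitochondria, had 30.4 and 30.3 CPM under the HMGB2 siRNA label and 24.8 and 22.9 CPM under the scramble label (log2 fold change 0.35 ± 0.09, SE, n = 2 each; edgeR adjusted p = 0.00317). DNAJC13, an endosomal sorting protein, had 155 and 159 CPM against 126 and 142 CPM (0.23 ± 0.07, SE, n = 2 each; edgeR adjusted p = 0.00656). Neither gene's groups overlapped. DNAJC24, an enzyme cofactor of diphthamide synthesis, had 23.2 and 19.0 CPM against 16.4 and 18.7 CPM (0.28 ± 0.11, SE, n = 2 each; edgeR adjusted p = 0.0477). DNAJC6, the clathrin uncoating factor auxilin, had the largest fold of the class but rests on few reads, 59 and 42 counts against 28 and 16 counts (0.93 ± 0.34, SE, n = 2 each; edgeR adjusted p = 0.0323).

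The 3 class C genes that fell where HMGB2 was high are also unlike each other. DNAJC30, a mitochondrial protein, had 18.1 and 17.9 CPM against 22.8 and 22.7 CPM under the scramble label, the closest replicates of the 3 (log2 fold change -0.34 ± 0.10, SE, n = 2 each; edgeR adjusted p = 0.00879). DNAJC14 had 60.8 and 67.7 CPM against 73.3 and 76.9 CPM (-0.23 ± 0.07, SE, n = 2 each; edgeR adjusted p = 0.0133). DNAJC5, the vesicle protein known as cysteine string protein, had 131 and 142 CPM against 155 and 152 CPM (-0.17 ± 0.07, SE, n = 2 each; edgeR adjusted p = 0.0426). None of the 7 called class C genes kept its call under all leave-one-out fits. Without replicate 1 labelled HMGB2 siRNA all 7 lost it, with log2 fold changes of 0.35 for DNAJC19, 0.25 for DNAJC13, 0.12 for DNAJC24, 0.997 for DNAJC6, -0.34 for DNAJC30, -0.15 for DNAJC14 and -0.11 for DNAJC5 (edgeR adjusted p from 0.0725 to 0.701). Without replicate 2 of that label DNAJC13 (0.22), DNAJC6 (0.88), DNAJC30 (-0.32) and DNAJC5 (-0.22) lost it. Leaving out scramble replicate 1 ended the calls of DNAJC24 (0.19) and DNAJC5 (-0.15), and scramble replicate 2 that of DNAJC6 (0.62). DESeq2 ended those of DNAJC24 and DNAJC5 (adjusted p = 0.191 and 0.0734) and gave DNAJC6 no adjusted p. The call of DNAJC24 was also lost with upper-quartile and total-count scaling (0.23 each, adjusted p = 0.118 and 0.137), and that of DNAJC5 without the low-count filter (-0.15, adjusted p = 0.132). DNAJC14 shares exon bases with ORMDL2 on the opposite strand, which also fell (-0.34, edgeR adjusted p = 0.000982), and with TMEM198B. DNAJC24 shares some with IMMP1L (-0.13, edgeR adjusted p = 0.599). DNAJC8, a splicing-associated protein and the most abundant of the class per length, had 202 and 212 CPM against 193 and 183 CPM and was not called (0.14, edgeR adjusted p = 0.106), but was without scramble replicate 1 (0.18, adjusted p = 0.0136).

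**Figure D2:**
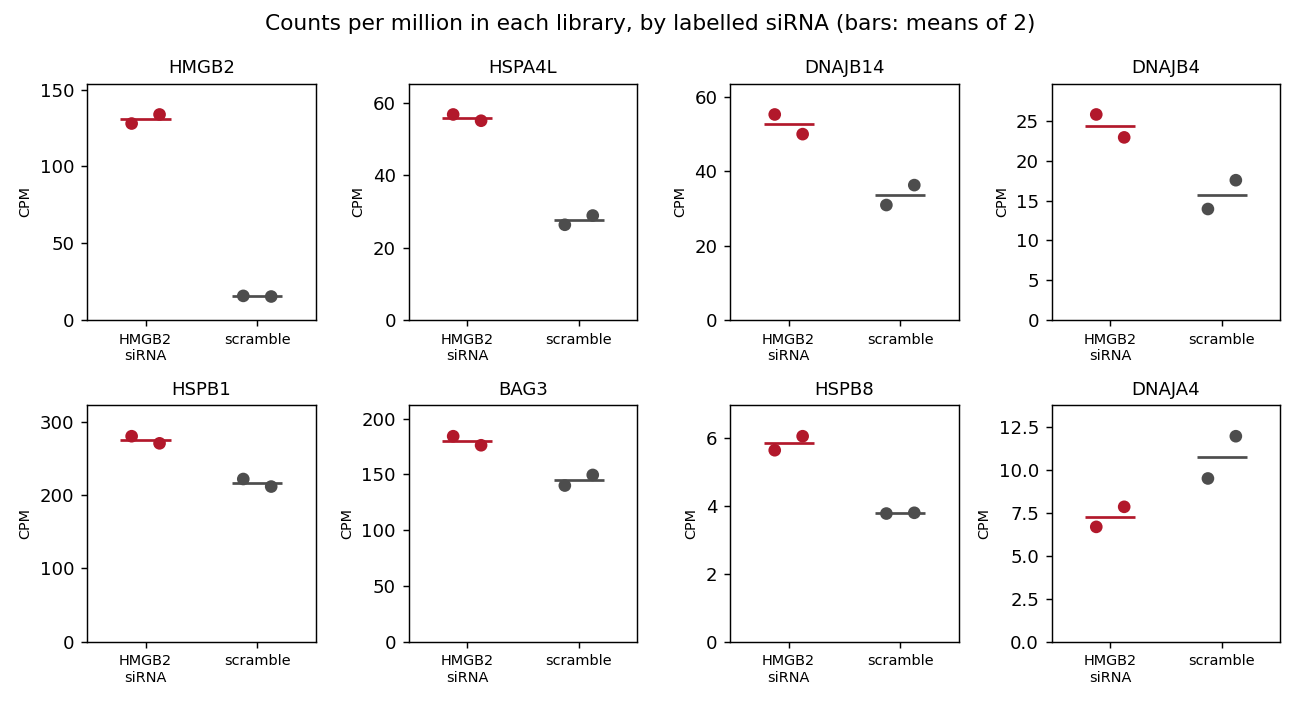
CPM (vertical axes, from 0) of HMGB2 and 7 chaperone genes in each library, by its label, with horizontal bars for the means of 2. HSPA4L, DNAJB14, DNAJB4, HSPB1, BAG3 and HSPB8 are higher in both libraries labelled HMGB2 siRNA, as HMGB2 is, and DNAJA4 is lower in both.

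Small heat shock proteins (4 tested) and BAG co-chaperones (6 tested) each had 2 genes called higher and 0 lower. Higher was the side where HMGB2 was high. Of all genes tested 16.7% were called higher and 14.1% lower, and groups of 4 and 6 genes are too small to set apart from these shares. HSPB1, also called HSP27 (chromosome 7, 76302673 to 76304292), had 281 and 271 CPM against 222 and 212 CPM under the scramble label. The groups stood apart by more than their own spread, with a log2 fold change of 0.35 ± 0.06 (SE, n = 2 each; edgeR adjusted p = 2.6e-05). HSPB8 (chromosome 12, 119178931 to 119194746), which works with BAG3 in the selective autophagy of damaged protein, had 5.63 and 6.04 CPM against 3.77 and 3.79 CPM (log2 fold change 0.62 ± 0.19, SE, n = 2 each; edgeR adjusted p = 0.00995). That call was lost without replicate 1 or 2 labelled HMGB2 siRNA (0.68 and 0.58, adjusted p = 0.0545 and 0.0874) and with DESeq2 (adjusted p = 0.0637). HSPB11 had 34.4 and 31.8 CPM against 35.2 and 30.3 CPM, which overlap. HSPB6 had 23 and 5 counts against 14 and 16 counts and was not called (edgeR adjusted p = 0.582), and the 4 other HSPB genes had too few counts to test.

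BAG3 (chromosome 10, 119651380 to 119677819), which joins HSP70 to HSPB8, had 184 and 176 CPM under the HMGB2 siRNA label and 140 and 150 CPM under the scramble label. The groups did not overlap, and the log2 fold change was 0.32 ± 0.07 (SE, n = 2 each; edgeR adjusted p = 0.000143). It was the most abundant BAG gene per length, at 154 TPM on average over the 4 libraries. BAG4 had 13.7 and 13.6 CPM against 10.7 and 11.1 CPM (0.32 ± 0.12, SE, n = 2 each; edgeR adjusted p = 0.0397). Its call was lost without replicate 1 or 2 labelled HMGB2 siRNA (0.32 and 0.34, adjusted p = 0.237 and 0.162), without scramble replicate 1 (0.30, adjusted p = 0.0751) and with upper-quartile or total-count scaling (0.27 and 0.28, adjusted p = 0.0864 and 0.0887), with DESeq2 (adjusted p = 0.155) and without the low-count filter (adjusted p = 0.0501). BAG2, an inhibitor of the ubiquitin ligase CHIP, had 117 and 120 CPM against 104 and 108 CPM, apart but not called (0.17, interval 0.03 to 0.30; edgeR adjusted p = 0.052), although it was without scramble replicate 2 (0.20, adjusted p = 0.0135). BAG1 and BAG5 lay the other way without passing, at -0.12 each on the log2 scale (edgeR adjusted p = 0.241 and 0.287).

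The chaperonins were abundant, and their differences between the labels were small. TRiC is a double ring in which each of its subunits has a fixed place. Of its 8 genes 1 was called (12.5%, against 30.8% of all genes). Both libraries labelled HMGB2 siRNA lay above both scramble libraries for 5 of the 8 and below for 0. Of all genes 32.0% lay above and 31.6% below. CCT4 (chromosome 2, 61868085 to 61888671) had 371 and 354 CPM under the HMGB2 siRNA label and 321 and 315 CPM under the scramble label, without overlap (log2 fold change 0.19 ± 0.06, SE, n = 2 each; edgeR adjusted p = 0.0187). This call was lost without replicate 1 or 2 labelled HMGB2 siRNA (0.16 and 0.23, adjusted p = 0.336 and 0.112) and with upper-quartile or total-count scaling (both 0.14, adjusted p = 0.0861 and 0.0677). The other 7 had log2 fold changes from -0.03 to 0.11, with TCP1 at 0.11 and CCT7 at 0.10 the nearest to a call (edgeR adjusted p = 0.215 and 0.252). TCP1 passed without scramble replicate 2 (0.15, adjusted p = 0.0364) and CCT7 without scramble replicate 1 (0.18, adjusted p = 0.0105). Per exon length the 8 subunits spread over a range that was much the same in every library, from 322 to 816 TPM and 298 to 829 TPM under the HMGB2 siRNA label and from 294 to 825 TPM and 306 to 791 TPM under the scramble label. CCT3 and CCT6A were at the top and CCT8 at the bottom of that range. TCP1 shares exon bases with ACAT2 on the opposite strand, which fell (-0.49, edgeR adjusted p = 7.51e-08), and CCT4 with COMMD1 (-0.06, edgeR adjusted p = 0.661).

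In the mitochondrial chaperonin the lid gene was called higher and the barrel gene was not called. HSPD1, the barrel subunit HSP60, and HSPE1, its lid HSP10, lie head to head on chromosome 2 (197486584 to 197500274 and 197500379 to 197503449) with 104 bases between their first exons. HSPE1 had 141 and 141 CPM under the HMGB2 siRNA label and 124.6 and 116 CPM under the scramble label (log2 fold change 0.22 ± 0.07, SE, n = 2 each; edgeR adjusted p = 0.00703). HSPD1 had 1107 and 1131 CPM against 1129 and 1134 CPM, which overlap (-0.02, interval -0.15 to 0.12; edgeR adjusted p = 0.881). Per exon length the ratio of HSPD1 to HSPE1 was 1.85 and 1.899 under the HMGB2 siRNA label and 2.14 and 2.30 under the scramble label, a difference that was not tested. Without replicate 1 or 2 labelled HMGB2 siRNA the value of HSPE1 was 0.23 each time and the call was lost (adjusted p = 0.139 and 0.112). HSPE1 shares exons with the readthrough gene HSPE1-MOB4, which had at most 1 count in a library.

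**Figure D3:**
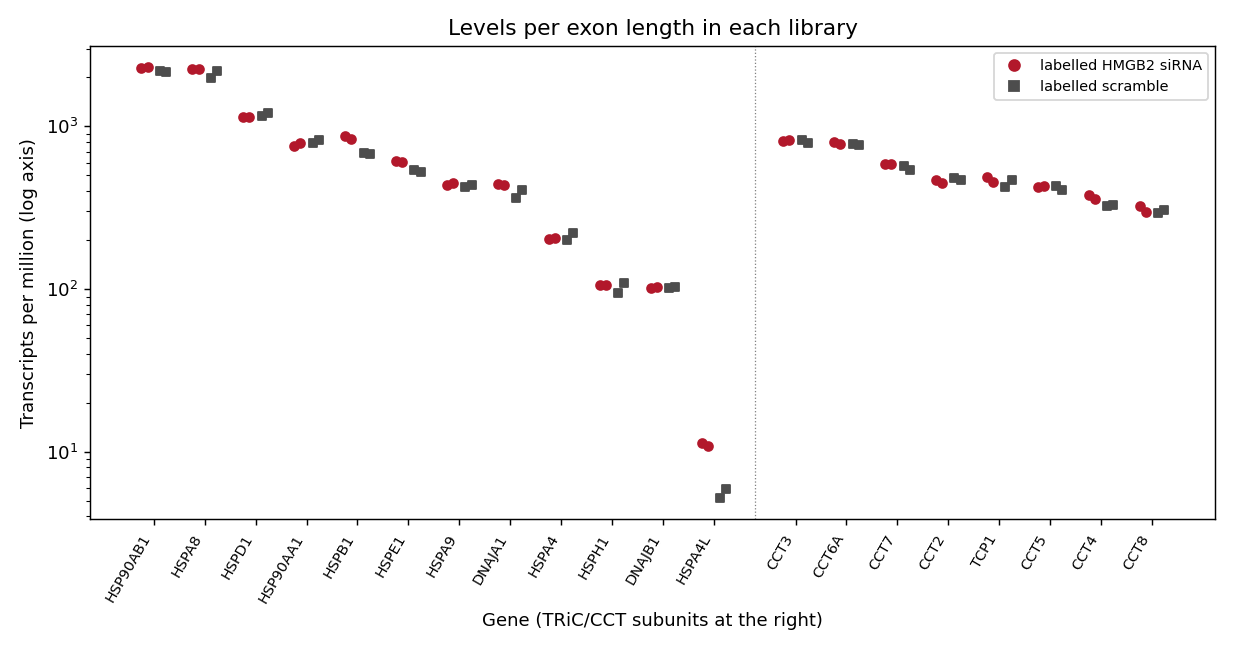
TPM (log axis) of 20 chaperone genes in each library, with circles for libraries labelled HMGB2 siRNA and squares for libraries labelled scramble, and the TRiC subunits at the right. The order of levels was led by HSP90AB1 and HSPA8, and of the genes shown HSPA4L is the least abundant and the furthest apart between labels.

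Of the heat shock factors, HSF2 was called higher and HSF1 was not called. HSF2 had 42.0 and 38.4 CPM under the HMGB2 siRNA label and 35.5 and 33.0 CPM under the scramble label, without overlap (log2 fold change 0.23 ± 0.09, SE, n = 2 each; edgeR adjusted p = 0.031). The call was lost without replicate 1 or 2 labelled HMGB2 siRNA (0.17 and 0.30, adjusted p = 0.449 and 0.0782), without scramble replicate 2 (0.19, adjusted p = 0.0869), with DESeq2 (adjusted p = 0.112) and with upper-quartile or total-count scaling (0.18 and 0.19, adjusted p = 0.0976 and 0.101). HSF1, the main factor of the heat shock response, had 132 and 119 CPM against 132 and 130 CPM (-0.06, interval -0.20 to 0.07; edgeR adjusted p = 0.54). HSF1 shares exon bases with DGAT1 on the opposite strand.

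Seen per length, some parts of the chaperone pool were level between the labels and others lay apart. All 84 genes together took 15657 and 15524 TPM under the HMGB2 siRNA label and 14735 and 15014 TPM under the scramble label. HSP90AB1, HSPA8, HSPD1 and HSP90AA1 made up 41.1% and 41.9% of that sum against 41.6% and 42.4%. The small heat shock genes summed to 948 and 899 TPM against 757 and 742 TPM, nearly all of it HSPB1. The sums of HSP70, HSP90, class A, TRiC, mitochondrial chaperonin and BAG genes also lay higher in both libraries labelled HMGB2 siRNA. Class C sums overlapped, and class B J-domain genes lay lower, with 647 and 654 TPM against 666 and 674 TPM. These sums carry no test, and TPM values within a library are shares of its total.

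Among 53 other protein-folding genes outside this set (HSP90 cochaperones, prefoldin and the like, listed with earlier results of these data known), 51 were tested, with 11 higher (21.6%) and 6 lower (11.8%) under the HMGB2 siRNA label, where 16.7% and 14.1% of all genes were called. In either direction 33.3% were called, near the 30.8% of all genes. With upper-quartile scaling 7 rose and 7 fell. With a library labelled HMGB2 siRNA left out, fewer of these folding genes passed, and fewer of all genes passed too. Among those higher were RUVBL2 (210 and 212 CPM against 167 and 151 CPM under the scramble label), an ATPase of the R2TP complex, the HSP90-associated NUDCD2 (65.2 and 58.7 CPM against 47.9 and 42.3 CPM) and CHORDC1 (145 and 138 CPM against 105 and 129 CPM). Their log2 fold changes were 0.41, 0.46 and 0.28 (edgeR adjusted p from 2.3e-06 to 0.0022). In the other direction stood SERPINH1, the collagen chaperone HSP47, at -0.48 with 107 and 104 CPM against 147 and 147 CPM, AHSA2P at -0.48, HSP90B1, the endoplasmic reticulum HSP90, at -0.29, and GRPEL1, the exchange factor of mitochondrial HSP70, at -0.27 (edgeR adjusted p from 6.53e-08 to 0.00271). Without replicate 1 labelled HMGB2 siRNA the calls of CHORDC1 (0.24), HSP90B1 (-0.27) and GRPEL1 (-0.25) were lost, as was that of GRPEL1 without replicate 2 of that label (-0.27) and that of CHORDC1 without scramble replicate 1 (0.14).

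Across the 12 alternative fits, 5 of the 17 genes called higher kept their call in each, and 0 of the 5 called lower did. The 5 were HSPA4L, DNAJB14, DNAJB4, HSPB1 and BAG3, with largest adjusted p of 1.51e-09, 7.98e-05, 0.00372, 0.0154 and 0.041. No called chaperone gene changed sign in any of the 12 fits. How many of all called genes kept their call in each fit was not counted. These counts therefore do not set the chaperone genes apart from other genes, nor the higher calls apart from the lower.

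**Figure D4:**
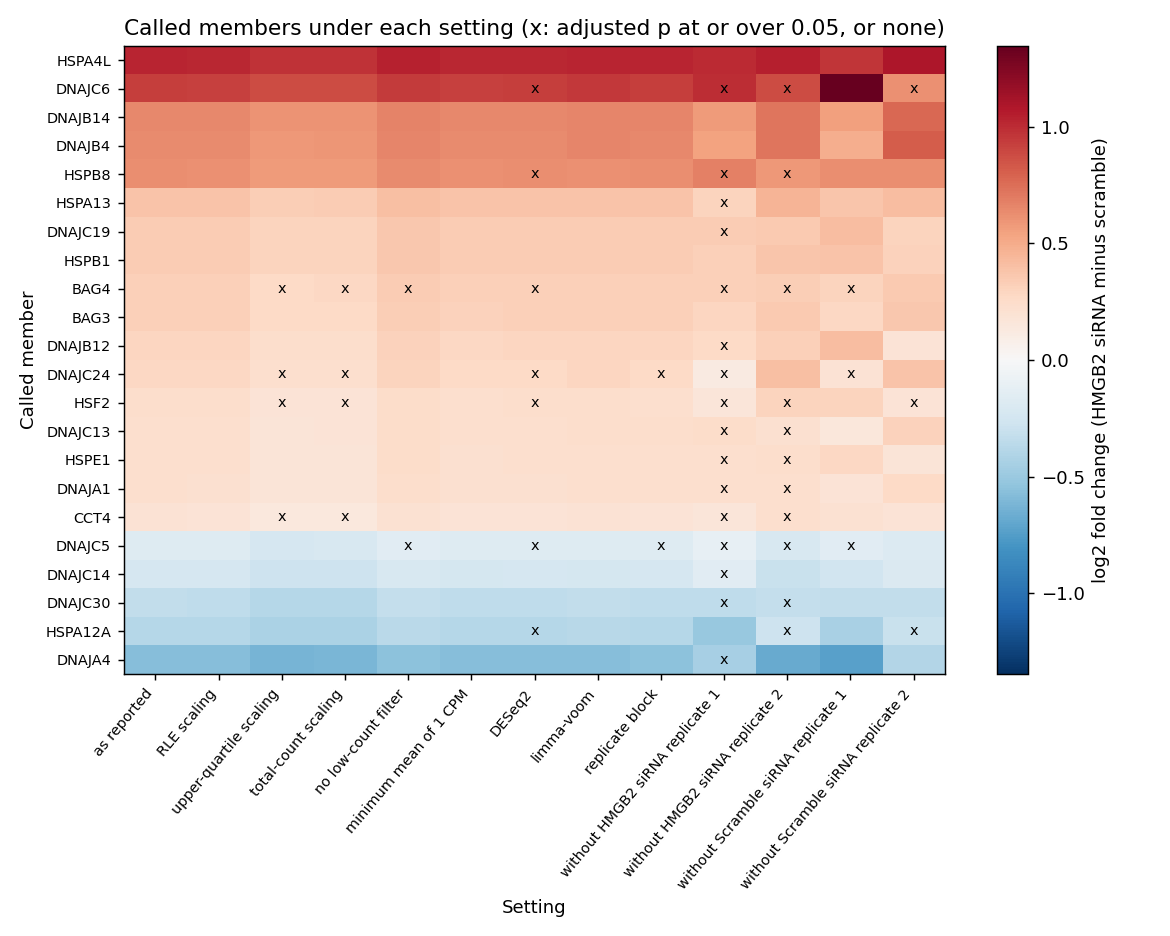
Log2 fold change (colour, libraries labelled HMGB2 siRNA minus libraries labelled scramble) of the 22 called chaperone genes under each setting, with a cross where the adjusted p was 0.05 or more or was not given. Crosses are densest where a library labelled HMGB2 siRNA is left out, fits in which fewer of all genes passed too. The rows of HSPA4L, DNAJB14, DNAJB4, HSPB1 and BAG3 hold none.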

How the data were processed

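The authors deposited 1 table of unnormalized whole-number read counts per gene for each library, per the file headers. STAR, SAMtools 1.9, featureCounts of Subread 1.6.3, DESeq2 and the build hg38 (GRCh38) are named in the submitters' processing notes. Settings for strand, multimapping reads and overlapping genes are not given in the sources used here. Tables were assigned to samples as deposited and samples to groups by treatment label, although headers name the opposite treatment.

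Counts of all genes were fitted with edgeR 4.0.16 in R 4.3.3 (TMM scaling, filterByExpr with a smallest count of 10 and total of 15, group as the only term, quasi-likelihood test), with Benjamini-Hochberg adjustment of p over 15161 genes. CPM used TMM-scaled totals and TPM the exon length on chromosomes. That length takes in all listed exons of a gene, so the order of genes per length depends on which exons are listed. A single value in 2 against 2 libraries allows no two-sided permutation p below 0.333. The edgeR test moderates each gene's spread with that of the other genes. The fit was tested on simulated counts with known changes. It called 38.8% of 49 genes changed 1.25-fold, 68% of 50 changed 1.5-fold and 83.3% of 48 changed 2-fold. Of 14726 unchanged genes 3 were called. A gene not called may thus still differ by such an amount. Far fewer genes changed in the simulation than were called here, so its shares are only a guide. Genes and lists were chosen with earlier results of these data known. Named genes were HMGB2, up to 12 called genes each way by size of change, the 3 with the smallest p and the most abundant per length in each role group, a short list of well-known genes such as HSPA8 and HSF1, and 4 other folding genes in each direction, of which 1 is not reported here. The genes not tested, DNAJC10, HSPA2, HSPA6, KRT7, KRT19, PDGFRB, CCT6A, CCT8, HSPB11, BAG1, BAG5 and BAG6, and TECR, ORMDL2 and the other overlapping genes, were added after their values were seen. Other scalings (RLE, upper-quartile, total-count) were tried, other filters (none, or a mean of 1 CPM), DESeq2 1.42.0, limma-voom 3.58.1, a replicate block and leaving out each library.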

Additional observations from a re-analysis of the deposited data

How the results depend on the processing

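The count of chaperone genes called higher was 12 to 18 under other scalings, filters and tools and with the replicate block, and 5 to 20 without a single library. The count called lower was 3 with DESeq2, 4 to 7 otherwise, and 1 to 6 without a single library. At an unadjusted p under 0.05 DESeq2 had 16 chaperone genes higher and 5 lower, and 6 of the 71 had no adjusted p there. The median log2 fold change was 0.0036 with upper-quartile scaling. Over all genes DESeq2 called 1284 lower against 2135 by edgeR, and leaving out a library gave 1481 to 2904 higher and 903 to 2291 lower. The balance over all genes turned with scaling, from 2536 higher and 2135 lower to 2035 and 2809 with upper-quartile and 2015 and 2641 with total-count scaling, and the background shares turn with it. Other folding genes called higher were 7 with upper-quartile and with total-count scaling, 4 to 12 without a single library, and 2 to 7 were then lower. Deviations of same-numbered libraries correlated at -0.01 over genes. With 2 libraries per label this cannot show whether the replicate numbers pair the libraries. With the replicate block 16 chaperone genes were higher and 4 lower, and DNAJC24 and DNAJC5 lost their calls (edgeR adjusted p = 0.0507 and 0.0608). Counting only genes that share no exon with another gene, an alternative chosen after seeing the data, left 43 tested. Of these, 11 were higher and 1 lower. Leaving out genes with exons on alternative sequences instead changed neither count of the main fit (17 and 5). Neither restriction was applied to all genes, so no background share stands beside these counts. Low counts limit what BAG6, HSPA1B and HSPA6 can show.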
